A study of Danio rerio with 2 samples.

Results

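The RNA of 10 genes of the Notch pathway was measured in single cells of zebrafish embryos: the receptors notch1a, notch1b, notch2 and notch3, the Delta ligands dla, dlb, dlc and dld, and the Jagged ligands jag1b and jag2b. They were taken by symbol from the 25432 genes in the files, and each symbol matched 1 gene (notch1a ENSDARG00000103554, notch1b ENSDARG00000052094, notch2 ENSDARG00000043130, notch3 ENSDARG00000052139, dla ENSDARG00000010791, dlb ENSDARG00000004232, dlc ENSDARG00000002336, dld ENSDARG00000020219, jag1b ENSDARG00000013168 and jag2b ENSDARG00000021389). The study asked what becomes of pigment cell precursors when mgat4b, which codes for an N-glycan branching enzyme, is disrupted. The mgat4b mut library came from mitfa:Cas9 embryos that carried sgRNAs against mgat4b, and the control library from mitfa:Cas9 embryos that carried a nontargeting sgRNA. Embryos of both groups received the guides on a mitfa:GFP plasmid, and GFP-positive cells were sorted at 36 hours post fertilization (hpf). The animals were mosaic injected embryos in which the mitfa promoter drove Cas9, so the label mgat4b mut names the injection and not a uniform genotype.

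Notch receptors sit on the cell surface and are activated by Delta or Jagged ligands on a neighboring cell, which releases the intracellular part of the receptor to act with the DNA-binding protein Rbpj in the nucleus. In the developing nervous system, cells that make more Delta become neurons and hold back their neighbors, in which Notch turns on repressors of the her and hey families. The same pathway shapes blood vessels, the ear and pigment cells. The receptors carry many sugar chains, and fringe enzymes such as Lfng change which ligands they answer to.

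The mgat4b mut library held 4120 barcodes with 31032783 unique molecular identifiers (UMIs), against 1923 barcodes with 17502003 UMIs in the control library. The filter of the study (more than 200 genes and under 5% mitochondrial UMIs) left 3860 mgat4b mut cells, with a median of 6480 UMIs, and 1771 control cells, with a median of 4919 UMIs. There was 1 library a group, so the values below carry no replicate error, and no test was run between the groups. Intervals are exact 95% intervals that cover counting error only. Of the 5631 passing cells, 1 barcode sequence was shared by both libraries. The level of mgat4b RNA was 64.3 CPM (61.5 to 67.2; CPM are UMIs of a gene per 1000000 UMIs) in the mgat4b mut library and 80.8 CPM (76.6 to 85.1) in the control library, and 3' counts of a gene cut by Cas9 do not measure its loss.

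The cells are labeled melanocytes, but most were not in clusters named after pigment cells. Clustering, with the Notch genes left out of the clustering features, gave 33 clusters, of which 22 were named after marker genes and merged into 19 classes with 3709 cells. No cluster was named after melanophores, and a marker gate found 21 such cells in the mgat4b mut library and 3 in the control library. The named classes held 2823 of the 3860 mgat4b mut cells and 886 of the 1771 control cells. The 4 neural classes (neural progenitor-, newborn neuron-, differentiated neuron- and retinal progenitor-like) held 25.2% of the mgat4b mut cells and 21.2% of the control cells. In UMIs the order was reversed, at 20.9% in mgat4b mut and 25.5% in control. Another 11 clusters stayed unnamed, and 4 of these had a median under 1000 UMIs a cell. The order of classes given below is that of the named classes alone.

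The receptor notch3 was highest in neural progenitor-like cells in both libraries. Its level there was 768 CPM (731 to 806) in mgat4b mut and 1070 CPM (1008 to 1136) in control, and the next class reached 392 CPM (floor plate-like) in mgat4b mut and 485 CPM (retinal progenitor-like) in control. The level in neural progenitor-like cells was thus 1.96 times (1.72 to 2.25) that of the next class in mgat4b mut and 2.21 times (1.93 to 2.52) in control. An unnamed cluster led by slc1a3b and gfap, genes of radial glia, had much the same notch3 level, 811 CPM in its 84 mgat4b mut cells and 874 CPM in its 38 control cells. Myeloid-like cells had 7 notch3 UMIs in mgat4b mut (8.52 CPM) and none in control, which allows up to 25.4 CPM.

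The receptor notch1a was spread over progenitors and newborn neurons. Newborn neuron-like cells had 926 CPM (868 to 986) in mgat4b mut and 634 CPM (584 to 687) in control. Neural progenitor-like cells had 552 CPM (521 to 584) in mgat4b mut and 654 CPM (606 to 706) in control. The newborn neuron-like class was therefore first in mgat4b mut, 1.68 times (1.54 to 1.83) above the next, while in control the 2 classes were level (1.03 times, 0.923 to 1.15, with the progenitors on top). In both libraries retinal progenitor-like cells came after these, at 417 CPM in mgat4b mut and 511 CPM in control, followed by endothelium-like cells, at 207 CPM in mgat4b mut and 219 CPM in control.

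The other Notch1 gene, notch1b, was shared between neural progenitors and blood vessels. Endothelium-like cells had 503 CPM (453 to 558) in mgat4b mut and 468 CPM (395 to 552) in control. Neural progenitor-like cells had 463 CPM (434 to 492) in mgat4b mut and 767 CPM (715 to 823) in control. In mgat4b mut the 2 classes differed by less than the counting error (1.09 times, 0.962 to 1.23), whereas in control the progenitors stood 1.58 times (1.37 to 1.81) above the next class. In contrast to notch1a, notch1b in newborn neuron-like cells was well under the progenitor level, at 171 CPM in mgat4b mut and 221 CPM in control.

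The receptor notch2 had a different distribution and was low in neurons. Mesenchyme-like cells had 257 CPM (237 to 280) in mgat4b mut and 260 CPM (232 to 290) in control, and myeloid-like cells had 172 CPM (144 to 202) in the 56 mgat4b mut cells and 339 CPM (242 to 461) in the 10 control cells. Differentiated neuron-like cells had 3 notch2 UMIs in mgat4b mut (1.91 CPM) and 10 in control (5.53 CPM). The 4 neural classes held 5.74% of all notch2 UMIs in mgat4b mut and 4.2% in control, whereas they held 68.0% of all notch1a UMIs in mgat4b mut and 61.0% in control.

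The Delta ligand dla, made by cells that are becoming neurons, peaked in newborn neuron-like cells in both libraries. Its level was 1630 CPM (1553 to 1710) in mgat4b mut and 1354 CPM (1280 to 1431) in control, which was 2.4 times (2.24 to 2.58) the level of neural progenitor-like cells in mgat4b mut and 1.70 times (1.56 to 1.86) in control. Once each cell was thinned to 2000 UMIs, 96 of 160 mgat4b mut and 49 of 79 control newborn neuron-like cells held a dla UMI (61.1% in mgat4b mut and 63.8% in control without thinning). Basal epidermis-like cells, which should lack dla, held it in 2 of 177 mgat4b mut cells (1.13%) and in 0 of 87 control cells (up to 3.45%) at the same depth, and in 2.23% of mgat4b mut and 3.45% of control cells without thinning. Their median depth was 8576 UMIs in mgat4b mut and 15292 UMIs in control, deeper than the newborn neuron-like cells, with 4692 UMIs in mgat4b mut and 7342 UMIs in control. Other non-neural classes held more dla. With both libraries summed, basal epidermis-like cells had 2.15 CPM, periderm-like cells 38.7 CPM (33.4 to 44.7) and fin fold-like cells 39.0 CPM (29.4 to 50.8).

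The Delta ligand dlb also peaked in newborn neuron-like cells in both libraries. Newborn neuron-like cells had 890 CPM (833 to 949) in mgat4b mut and 621 CPM (571 to 673) in control, which was 6.69 times (5.86 to 7.67) the level of neural progenitor-like cells in mgat4b mut and 3.56 times (3.0 to 4.23) in control. Differentiated neuron-like cells kept a dlb level of 85.2 CPM (71.4 to 100.9) in mgat4b mut and 91.2 CPM (77.8 to 106) in control. Basal epidermis-like cells had no dlb UMI in mgat4b mut (up to 1.78 CPM) and 1 in control (0.637 CPM). With both libraries summed, periderm-like cells had 11.7 CPM of dlb and fin fold-like cells 18.5 CPM.

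The Delta ligand dld, a ligand also used in somite segmentation, peaked in neural progenitor-like cells, with 104 CPM (90.6 to 118) in mgat4b mut and 131 CPM (109 to 155) in control. Newborn neuron-like cells had 94.1 CPM in mgat4b mut and 88.7 CPM in control, and in mgat4b mut the 2 classes overlapped (1.1 times, 0.865 to 1.41). In control the progenitors stood 1.47 times (1.06 to 2.06) above the next class, retinal progenitor-like cells at 89.2 CPM. The ligand dlc, which marks vessels as well as neural cells, was highest in endothelium-like cells in mgat4b mut (128 CPM, 103 to 157) and in retinal progenitor-like cells in control (96.0 CPM, 72.5 to 125). In control the endothelium-like level of 62.2 CPM (37.5 to 97.1), from 22 cells, overlapped the retinal one.

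The Jagged ligand jag1b was found mainly outside the neural classes, which held 11.7% of its UMIs in mgat4b mut and 11.9% in control. Otic vesicle-like cells had 281 CPM (240 to 327) in mgat4b mut and 392 CPM (316 to 481) in control, and iridophore-like cells, the reflective pigment cells, had 285 CPM (245 to 329) in mgat4b mut and 290 CPM (236 to 352) in control. Among the named classes, basal epidermis-like cells came next in both libraries, with 134 CPM (117 to 152) in mgat4b mut and 169 CPM (150 to 191) in control. With both libraries summed they had 151 CPM (138 to 165). An unnamed cluster led by col9a1a and pdgfrb was above them, at 224 CPM (208 to 240). Newborn neuron-like cells, in contrast, had 11.6 CPM in mgat4b mut and 31.0 CPM in control.

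The other Jagged ligand, jag2b, was spread across neurons, vessels and the floor plate. Newborn neuron-like cells had 194 CPM (168 to 223) in mgat4b mut and 119 CPM (97.6 to 143) in control, and endothelium-like cells had 165 CPM (137 to 198) in mgat4b mut and 138 CPM (99.1 to 186) in control. Neither library separated these 2 classes beyond counting error. The floor plate-like class, first in control with 158 CPM (118 to 207), had 70.9 CPM (51.9 to 94.6) in mgat4b mut, but 29 of its 52 control UMIs came from 1 cell.

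**Figure D1:**
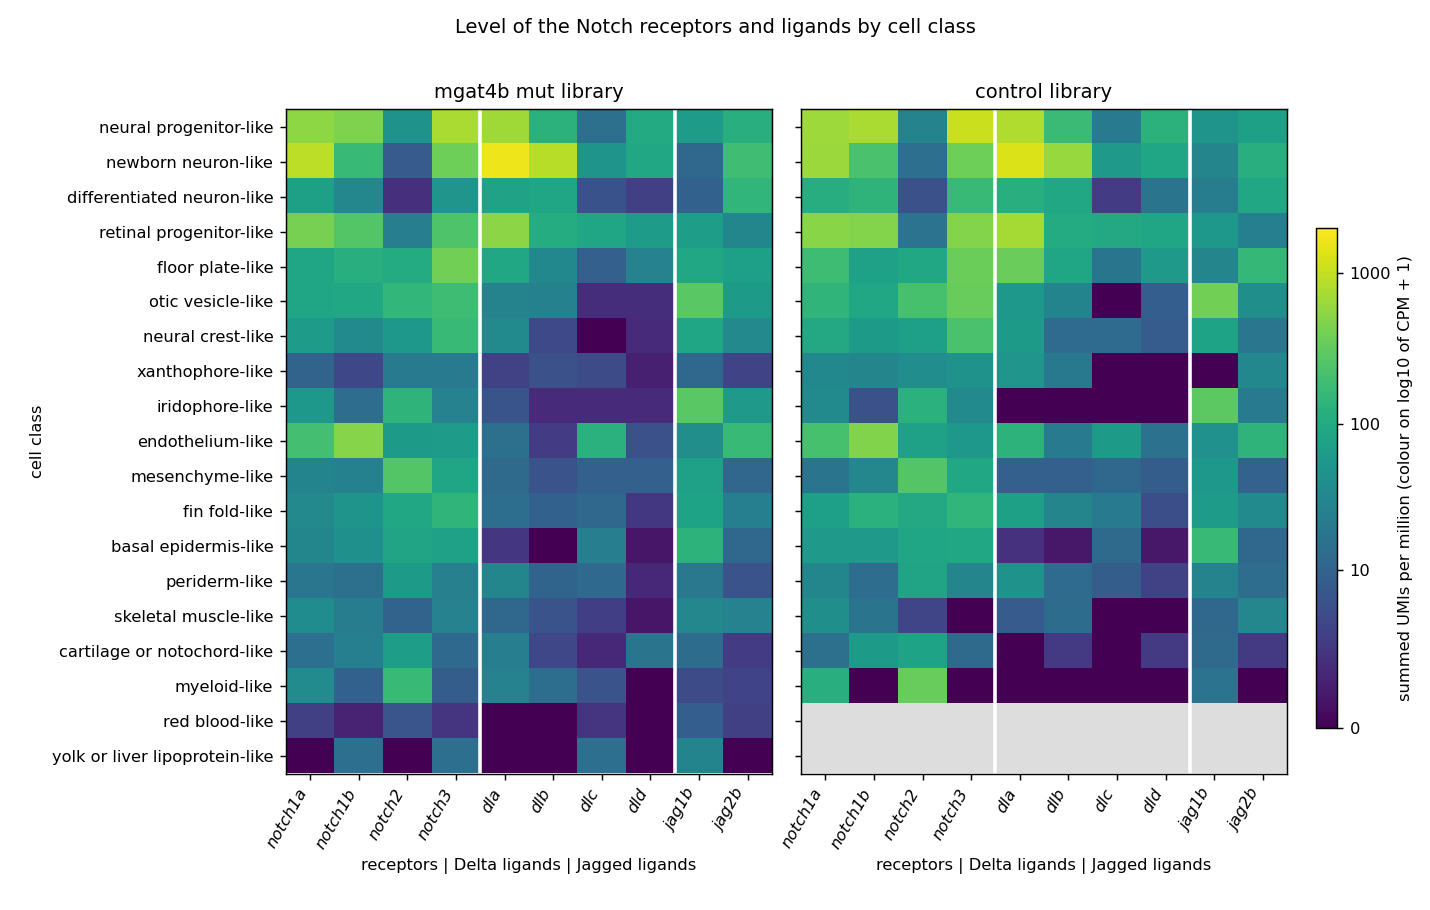
Level of each receptor and ligand (columns) in the 19 named cell classes (rows) in the mgat4b mut library (left) and the control library (right), in CPM on a log color scale; gray rows have under 10 cells in that library. The Delta genes dla and dlb are brightest in newborn neuron-like cells in both libraries, notch3 in neural progenitor-like cells, notch2 in mesenchyme- and myeloid-like cells, and jag1b in otic vesicle- and iridophore-like cells.

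For 4 of the 10 members, dla, dlb, dld and notch3, the same class was highest in both libraries. The other members changed places between classes whose levels are given above. Among the pigment cell classes, xanthophore-like cells (326 in mgat4b mut and 29 in control) held between 0.939 CPM (dld) and 22.5 CPM (notch2) of each member in mgat4b mut. In control they held up to 51.1 CPM (dla, with 13 of 15 UMIs in 1 cell), and dlc, dld and jag1b had no UMI, which allows up to 10.2 CPM each. In iridophore-like cells, jag1b was joined by notch2, at 137 CPM (110 to 169) in 52 mgat4b mut cells and 128 CPM (93.3 to 171) in 16 control cells, and the 4 Delta genes had no UMI in control, which allows up to 8.52 CPM each. Neural crest-like cells, the precursors of pigment cells, had notch3 at 170 CPM (149 to 193) in 131 mgat4b mut cells and 223 CPM (178 to 276) in 22 control cells.

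Over all cells, the members were at most 1.5 times apart between the libraries, with 1 exception. The size rule counts a gene as higher or lower where the ratio of its levels, mgat4b mut over control, is at least 1.5 in either direction, its interval leaves out 1, and both libraries together hold 20 UMIs. By this rule notch1b was lower, with 102 CPM (98.3 to 105) in mgat4b mut and 154 CPM in control, a ratio of 0.66 (0.627 to 0.696). The Deltas dla (165 CPM in mgat4b mut and 233 CPM in control, ratio 0.71), dlb (0.73) and dld (0.71) and the receptor notch3 (0.72) came near the rule, whereas notch2 (0.99), dlc (1.08), jag1b (1.01) and jag2b (1.03) were close to 1.

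The count of 1 lower and 0 higher of 10 members stands against 17.2% lower and 8.12% higher among the 20349 genes tested, so it was not above the background. The median log2 ratio of the members was -0.35, against -0.16 for all tested genes, which trimmed mean of M values (TMM) scaling moved to -0.01. The notch1b ratio was past 1.5-fold in 3 of 9 alternatives. The call was lost with TMM scaling (0.73), without the top cell (0.68), without mitochondrial and ribosomal protein genes in the total (0.69), with the mgat4b mut cells drawn down to the control number (0.68) and with the control mix of clusters (0.68), and the direction turned when CPM was averaged over cells (1.1). Sums over all cells do not by themselves separate the mix of classes from the level within a class, and the ratios within classes follow below. The neural classes held 20.9% of the UMIs in mgat4b mut and 25.5% in control.

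Within neural progenitor-like cells (294 in mgat4b mut and 74 in control), members passed the rule in both directions, in a share near that of all genes. The receptor notch1b was lower, with the levels given above and a ratio of 0.60 (0.549 to 0.663). The receptor notch2 was higher (47.7 CPM in mgat4b mut and 29.2 CPM in control, ratio 1.63, 1.08 to 2.54), and so was jag2b (121 CPM in mgat4b mut and 75.1 CPM in control, ratio 1.62, 1.25 to 2.11). The count of 1 lower and 2 higher of 10 members compares with 16.9% lower and 6.84% higher of 9963 tested genes (23.7% in either direction), and the members' median log2 ratio was -0.29 against -0.20 for all genes. With TMM scaling notch1b was at 0.72 and no longer passed, and averaged over cells notch2 was at 1.41.

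The Deltas of neural progenitor-like cells did not pass the rule. The ratio was 0.85 (0.782 to 0.929) for dla, 0.76 (0.63 to 0.923) for dlb and 0.79 (0.638 to 0.991) for dld. For dlc it was 0.68 (0.388 to 1.22), on 33 UMIs in mgat4b mut and 23 in control. The receptor notch3 was at 0.72 (0.664 to 0.775). A single control cell held 172 of the 817 dla UMIs of that class, and without the top cell the dla ratio was 1.01. With TMM scaling it was 1.02.

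Markers of other classes moved in neural progenitor-like cells too. The 11 mesenchyme markers summed to 149 CPM in mgat4b mut and 370 CPM in control, the 12 differentiated neuron markers to 185 CPM in mgat4b mut and 432 CPM in control, the 10 periderm markers to 406 CPM in mgat4b mut and 719 CPM in control, and the 10 newborn neuron markers to 1263 CPM in mgat4b mut and 1723 CPM in control. Retinal progenitor and basal epidermis markers were also lower in sum. Endothelium markers (90.3 CPM in mgat4b mut and 62.4 CPM in control) and melanophore markers (32.4 CPM in mgat4b mut and 23.4 CPM in control) were higher. Xanthophore markers were near level (448 CPM in mgat4b mut and 476 CPM in control). The class's own 10 markers summed to 2685 CPM in mgat4b mut and 3008 CPM in control, and the part of these in the member values was not tested.

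In newborn neuron-like cells (190 in mgat4b mut and 94 in control), jag2b was higher, at 194 CPM in mgat4b mut and 119 CPM in control (ratio 1.64, 1.29 to 2.08). The ligand jag1b was lower on few UMIs (12 in mgat4b mut and 29 in control, ratio 0.38, 0.175 to 0.759). The receptor notch1a (1.46, 1.32 to 1.62) and the Deltas dlb (1.43, 1.29 to 1.59) and dla (1.2, 1.12 to 1.30) were higher in mgat4b mut without reaching 1.5-fold. With TMM scaling notch1a (1.66) and dlb (1.63) passed the rule, and averaged over cells jag1b was at 0.84. Of 7847 genes tested in this class, 7.6% were higher and 13.2% lower, and the members' median log2 ratio was 0.06 against -0.14 for all genes. The 10 newborn neuron markers summed to 8504 CPM in mgat4b mut and 5765 CPM in control (ratio 1.48). Endothelium (1.60), xanthophore (1.55), melanophore (1.17) and neural progenitor markers (1.11) were also higher in sum. Basal epidermis (0.49), periderm (0.55), retinal progenitor (0.61) and mesenchyme markers (0.74) were lower, and differentiated neuron markers (0.94) were near level. The part of these marker sums in the member values was not tested.

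In retinal progenitor-like cells (216 in mgat4b mut and 56 in control), the receptors notch1b and notch3 were lower. Their levels were 259 CPM (234 to 285) for notch1b and 243 CPM for notch3 in mgat4b mut, against 487 CPM (432 to 547) for notch1b and 485 CPM for notch3 in control. The ratios were 0.53 (0.455 to 0.62) for notch1b and 0.50 (0.429 to 0.587) for notch3, and 9.95% of 7537 tested genes were lower and 6.86% higher by the same rule. Averaged over cells instead of UMIs, the ratios were 0.99 and 0.86. Neural progenitor markers, which this class shares, were also lower in sum, at 2934 CPM in mgat4b mut and 4940 CPM in control. The class's own 12 markers summed to 691 CPM in mgat4b mut and 893 CPM in control. Basal epidermis (0.43), periderm (0.45), differentiated neuron (0.63) and mesenchyme markers (0.91) were lower too. Newborn neuron markers (1.05) were near level, and xanthophore (1.09), melanophore (1.24) and endothelium markers (1.41) were higher. The part of these marker sums in the member values was not tested.

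Differentiated neuron-like cells (271 in mgat4b mut and 152 in control) had the most members past the rule. Lower were notch1b (32.4 CPM in mgat4b mut and 138 CPM in control, ratio 0.24), notch3 (50.8 CPM in mgat4b mut and 169 CPM in control, ratio 0.30), dld (ratio 0.18, 5 UMIs in mgat4b mut and 32 in control), jag1b (0.39), notch1a (0.65) and dla (0.66). The ligand jag2b was again higher, with 147 CPM (129 to 168) in mgat4b mut and 91.2 CPM in control (ratio 1.62, 1.32 to 1.99). In this class 6 members were lower and 1 higher of the 8 tested, against 13.4% lower and 6.91% higher of 10890 genes, and their median log2 ratio was -0.96 against -0.10 for all genes.

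This class was the sum of 2 clusters, and the values differed between them. In 1 of them alone (146 mgat4b mut and 74 control cells) dla had a ratio of 1.27, and notch1a was at 0.85, notch1b at 0.36 and notch3 at 0.38. In the other (125 mgat4b mut and 78 control cells) dla was at 0.054, notch1a at 0.21, notch1b at 0.091 and notch3 at 0.12. The direction of dla thus differed between the 2 clusters, while notch1b and notch3 were lower and jag2b higher (1.62 and 1.60) in each. The summed neural progenitor markers were 473 CPM in mgat4b mut and 754 CPM in control (ratio 0.63). Basal epidermis (0.47), endothelium (0.58), periderm (0.72), retinal progenitor (0.78) and mesenchyme markers (0.80) were also lower in sum. The class's own 12 markers were higher, at 9936 CPM in mgat4b mut and 7575 CPM in control. So were newborn neuron (1.21), xanthophore (1.21) and melanophore markers (1.74, on 53 UMIs in mgat4b mut and 35 in control). The part of these marker sums in the member values was not tested. With TMM scaling notch1a (0.71) and dla (0.72) no longer passed, and averaged over cells jag2b was at 1.32.

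**Figure D2:**
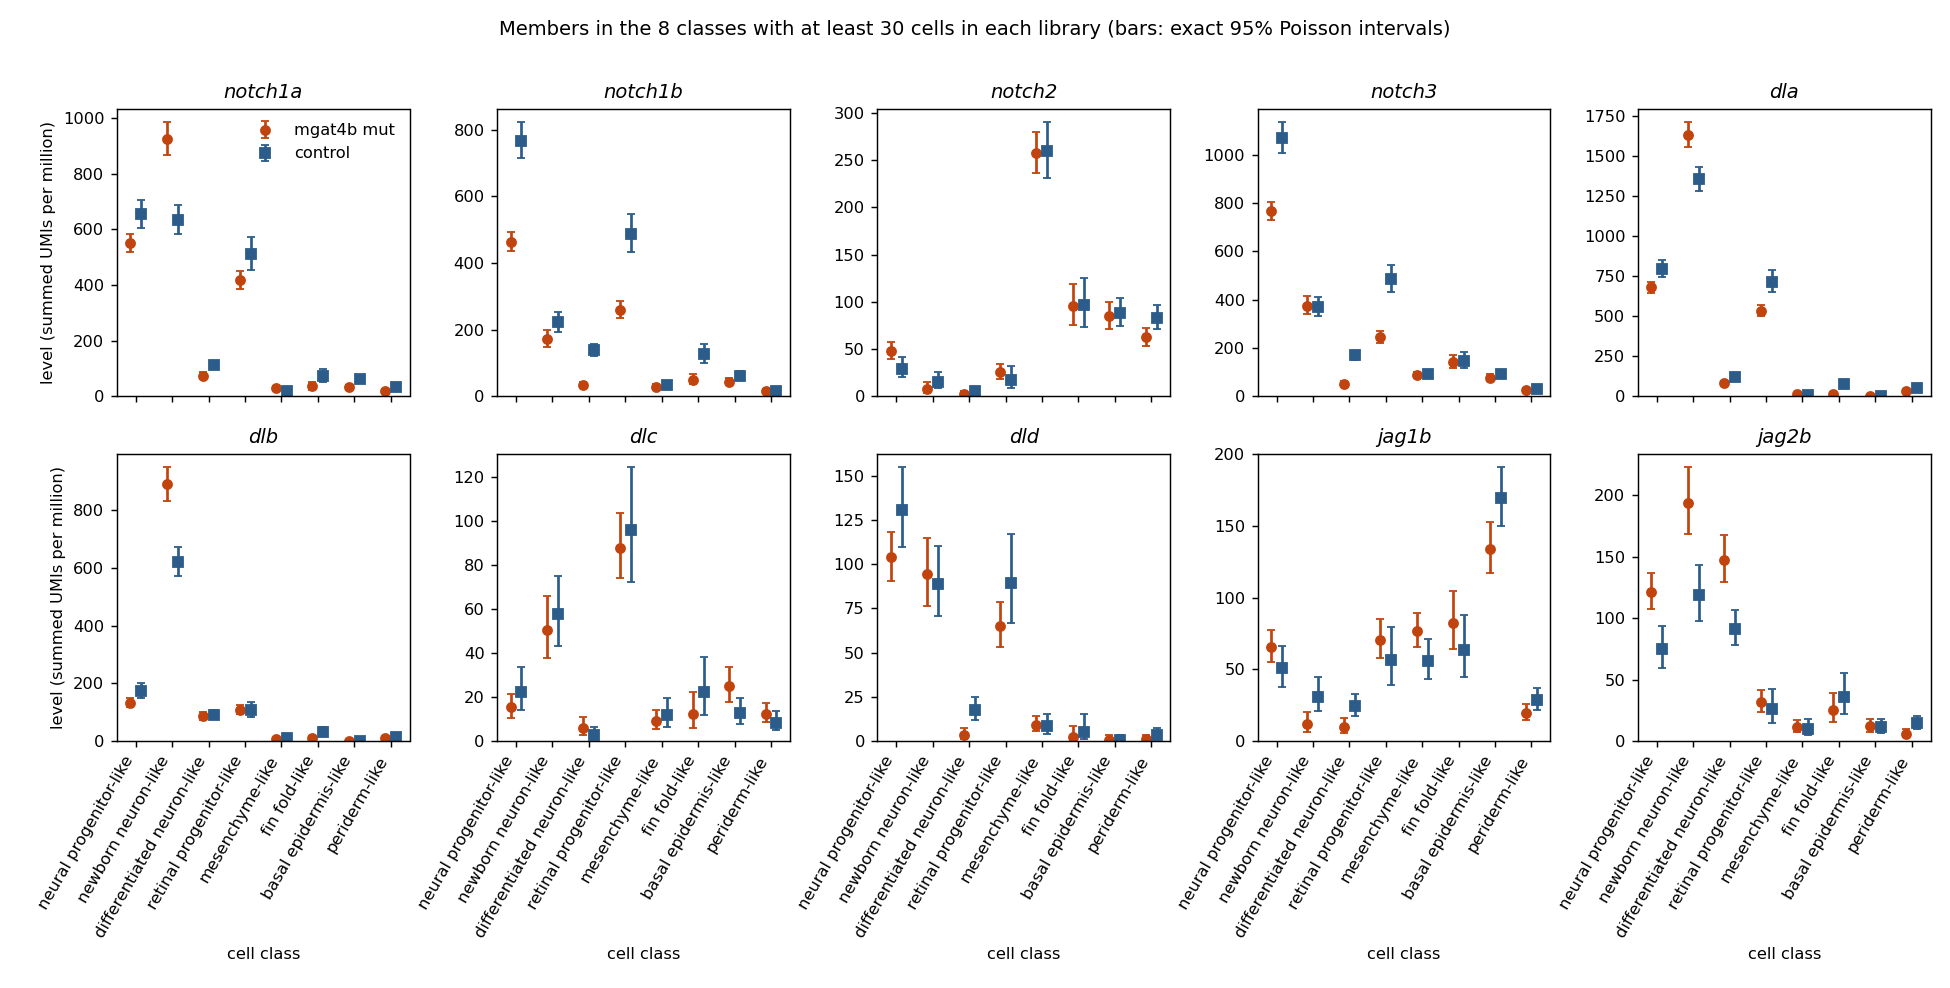
Level of each member (CPM, linear axis from 0) in the 8 classes that held 30 or more cells in both libraries; circles are mgat4b mut, squares are control, and bars are exact 95% Poisson intervals. The ligand jag2b lies higher in mgat4b mut in neural progenitor-, newborn neuron- and differentiated neuron-like cells (194 against 119 CPM in newborn neuron-like cells), and notch1b lies lower in neural and retinal progenitor-like cells (463 against 767 CPM and 259 against 487 CPM).

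Outside the nervous system, the member that passed the rule most often was notch1a. It was lower in basal epidermis-like cells (31.4 CPM in mgat4b mut and 59.9 CPM in control, ratio 0.52), periderm-like cells (0.59) and fin fold-like cells (0.49), and higher in mesenchyme-like cells (29.8 CPM in mgat4b mut and 17.5 CPM in control, ratio 1.70, 1.02 to 2.92). In mesenchyme-like cells the direction turned when clusters were drawn at the coarser resolution (0.88), and in periderm-like cells the ratio without the top cell was 0.94.

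Basal epidermis-like cells had dlc higher (24.9 CPM in mgat4b mut and 12.7 CPM in control, ratio 1.95, 1.12 to 3.51) on 42 UMIs in mgat4b mut and 20 in control, and at the coarser resolution the ratio was 1.35. This made 1 higher and 1 lower of 7 tested members, against 6.62% higher and 10.5% lower of 8595 genes. In mesenchyme-like cells 1 member was higher and 0 lower of 10, against 4.75% higher and 10.2% lower, and in periderm-like cells 3 were lower (notch1a, dla at 0.66 and jag2b at 0.42) and 0 higher of 9, against 10.7% lower and 8.12% higher. The dla ratio in periderm-like cells turned to 1.23 without the top cell. The class was the sum of 2 clusters in unequal mix, with 126 mgat4b mut and 79 control cells in 1 and 161 mgat4b mut and 22 control cells in the other. In the first alone notch1a was at 0.10, dla at 0.15 and jag2b at 0.13, on too few UMIs for the rule, and in the other alone they were at 0.31, 0.34 and 0.25.

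Fin fold-like cells had 4 members lower and 0 higher of 9 tested, against 20.3% lower and 6.92% higher of 6680 genes (27.2% in either direction). These were notch1a, notch1b (49.6 CPM in mgat4b mut and 126 CPM in control, ratio 0.39), dla (14.5 CPM in mgat4b mut and 73.9 CPM in control, ratio 0.20) and dlb (0.31). Neural progenitor markers summed to 79.8 CPM in mgat4b mut and 371 CPM in control, though their median over cells was 0 in both libraries. Differentiated neuron markers summed to 108 CPM in mgat4b mut and 464 CPM in control. Newborn neuron (0.25), retinal progenitor (0.20) and mesenchyme markers (0.65) were also lower. Periderm (0.98) and basal epidermis markers (1.04) were near level, and xanthophore markers (1.61) were higher. Melanophore (1.14, 13 UMIs in mgat4b mut and 8 in control) and endothelium markers (1.46, 29 UMIs in mgat4b mut and 14 in control) were higher on few UMIs. The part of these marker sums in the member values was not tested. Leaving out the top cell for each gene, dla was at 0.64 and dlb at 0.73, and 2 members passed the rule.

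Several genes listed here as Notch targets were lower in the mgat4b mut library. The list also holds hes6, which is on a list of proneural genes too. Which of the listed genes answer to Notch in these cells was not tested. Of 19 listed target genes, 17 could be matched to 1 gene each, and 9 of these were lower and 0 higher over all cells, against 17.2% lower and 8.12% higher of all genes. The targets' median log2 ratio was -0.59, beside -0.35 for the members. Lower among the most abundant were hey1 (76.7 CPM in mgat4b mut and 123 CPM in control, ratio 0.62), her15.1 (14.2 CPM in mgat4b mut and 82.7 CPM in control, ratio 0.17), her2 (29.0 CPM in mgat4b mut and 50.9 CPM in control, ratio 0.57) and her15.2 (9.49 CPM in mgat4b mut and 65.7 CPM in control, ratio 0.14). These genes code for transcriptional repressors of the hairy/E(spl) group, and her15.1 and her15.2 are near-identical neighbors whose reads the counting could share, so they are not independent. The repressors her6 (0.78), her9 (1.12) and her12 (0.90) did not pass.

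In neural progenitor-like cells, 8 of 15 tested targets were lower and 0 higher, against 16.9% lower and 6.84% higher of all genes in that class, and the median log2 ratio was -0.67, against -0.29 for the members and -0.20 for all genes. The gene her4.1, a direct Notch target in neural progenitors, had 72.3 CPM (61.4 to 84.5) in mgat4b mut and 221 CPM (193 to 252) in control. The level of her15.1 was 60.2 CPM (50.3 to 71.5) in mgat4b mut and 416 CPM (378 to 458) in control, a ratio of 0.14 (0.118 to 0.176), and that of her15.2 was 30.6 CPM (23.6 to 38.9) in mgat4b mut and 304 CPM (271 to 340) in control. For none of the 3 genes did the intervals of the libraries overlap, and all 3 were lower by the size rule. After thinning to 2000 UMIs, 11.4% of 263 mgat4b mut cells and 33.3% of 66 control cells held a her15.1 UMI (22.8% in mgat4b mut and 63.5% in control without thinning). At the same depth, mesenchyme-like cells, which are not neural, held her15.1 in 1.95% of mgat4b mut and 3.06% of control cells (6.11% in mgat4b mut and 10.2% in control without thinning). Depth moved with these values, at a median of 6334 UMIs in mgat4b mut and 9484 UMIs in control in neural progenitor-like cells. So did most of the marker lists of other classes given above for these cells. Their part in the difference was not tested.

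Not every listed target followed. In the same neural progenitor-like cells her9 was level (183 CPM in mgat4b mut and 184 CPM in control), her4.4 had a ratio of 0.86 and her8a of 0.72. The genes nrarpa (0.74) and nrarpb (0.78), which code for feedback inhibitors of Notch, did not pass either. In newborn neuron-like cells her4.4 was higher (62.1 CPM in mgat4b mut and 26.7 CPM in control, ratio 2.32, 1.44 to 3.85), as was hes6, a gene that favors neurogenesis (ratio 1.61). The her4 genes are also near-identical tandem copies, so a difference between her4.1 and her4.4 is uncertain.

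The low her15.1 and her15.2 levels were found in each neural class. The ratio of her15.1 was 0.13 (0.0828 to 0.205) in newborn neuron-like cells, 0.10 (0.0624 to 0.156) in retinal progenitor-like cells and 0.15 (0.081 to 0.269) in differentiated neuron-like cells. That of her15.2 was 0.096 in newborn neuron-like, 0.089 in retinal progenitor-like and 0.090 in differentiated neuron-like cells. In the unnamed slc1a3b cluster her15.1 had 53.9 CPM (38.7 to 73.2) in mgat4b mut and 274 CPM (240 to 313) in control, but her2, lower in neural progenitor-like cells (0.39), was at 208 CPM in mgat4b mut and 107 CPM in control there.

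Endothelium-like cells, with 93 cells in mgat4b mut and 22 in control, did not show the same order. There her15.1 had 58.4 CPM (42.1 to 78.9) in mgat4b mut and 42.6 CPM (22.7 to 72.8) in control, and her12 had 335 CPM in mgat4b mut and 19.6 CPM in control. With 22 control cells this class was below the 30 cells set for a comparison.

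In newborn neuron-like cells 9 of 14 targets were lower and 2 higher, against 13.2% lower and 7.6% higher of all genes. In retinal progenitor-like cells 8 of 14 were lower and 0 higher, against 9.95% lower and 6.86% higher. In differentiated neuron-like cells 9 of 13 were lower and 0 higher, against 13.4% lower and 6.91% higher. The targets' median log2 ratio was -1.05 in newborn neuron-like, -0.74 in retinal progenitor-like and -1.18 in differentiated neuron-like cells, beside all-gene medians of -0.14, -0.10 and -0.10. Over 5 alternatives (TMM scaling, the mean over cells, the top cell left out, a floor of 1000 UMIs a cell, and coarser clusters), the her15.1 ratio in neural progenitor-like cells ran between 0.14 and 0.18 and that of her4.1 between 0.29 and 0.39. Not all targets called lower were as stable. In the same cells her12 ran between 0.56 and 0.77. Over all cells her2 ran between 0.56 and 0.81 and hey1 between 0.62 and 0.69 in 5 alternatives, so each left the 1.5-fold limit in some. With 1 library per group, a difference between these 2 libraries and an effect of mgat4b cannot be told apart.

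**Figure D3:**
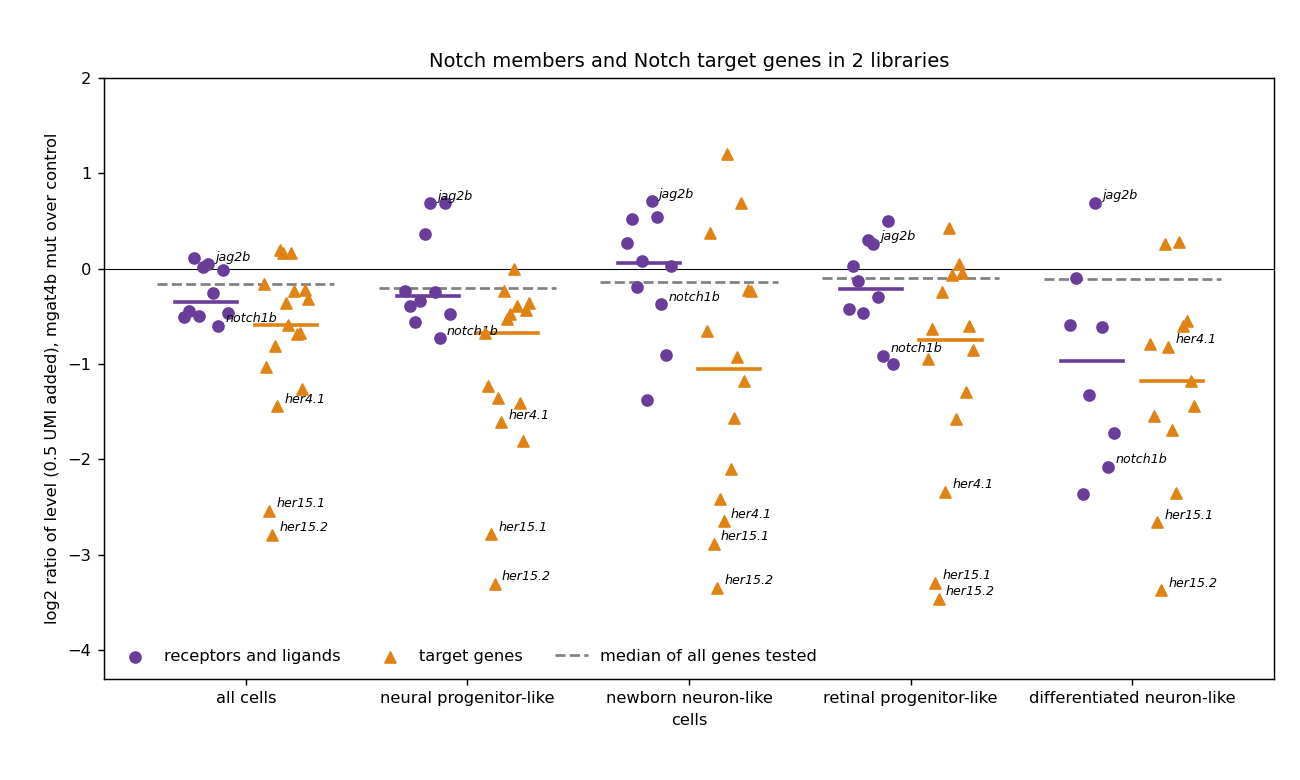
Log2 ratio of level, mgat4b mut over control (0.5 UMI added), for the receptors and ligands (circles) and the Notch target genes (triangles) with at least 20 UMIs, over all cells and in 4 neural classes; short bars are list medians and dashed lines the median of all genes tested. In neural progenitor-like cells the targets' median is -0.67 and the members' -0.29, and her15.1 and her15.2 lie lowest in each column.

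Among the other ligands, dll4, the Delta of sprouting vessels, was higher over all cells (28.8 CPM in mgat4b mut and 17.3 CPM in control, ratio 1.67, 1.46 to 1.91), and dner, a neuronal surface protein with EGF repeats, was lower on few UMIs (50 in mgat4b mut and 51 in control, ratio 0.55). In endothelium-like cells dll4 had 804 CPM (740 to 872) in mgat4b mut and 363 CPM (299 to 438) in control. This class held 93 of 3860 mgat4b mut cells and 22 of 1771 control cells. Its control cells were fewer than the number set for a comparison. Its 12 endothelium markers summed to 8500 CPM in mgat4b mut and 6025 CPM in control. Their medians over cells were closer, at 8363 CPM in mgat4b mut and 7340 CPM in control. The 10 periderm markers summed to 377 CPM in mgat4b mut (median 313) and 5127 CPM in control (median 827). The 11 mesenchyme markers summed to 268 CPM in mgat4b mut (median 0) and 1866 CPM in control (median 269). The control sums of these 2 lists were thus far above the medians over cells. The part of the marker sums in the dll4 values, here and over all cells, was not tested. In neural progenitor-like cells jag1a was higher, on 113 UMIs in mgat4b mut (52.3 CPM) and 15 in control (14.6 CPM), a ratio of 3.58 (2.08 to 6.61). Of 7 vascular Notch genes over all cells, 1 was higher (dll4) and 3 lower (notch1b, hey2 at 0.63 and tbx20 at 0.59), against 8.12% higher and 17.2% lower of all genes.

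Of the 20 genes for ligand uptake, receptor glycosylation and cleavage, 1 was higher over all cells (neurl1b, a Neuralized-type E3 ligase, ratio 1.55) and 1 lower (furinb, a protease that matures the receptor, ratio 0.58), which is below the shares of 8.12% higher and 17.2% lower among all genes. The fringe gene lfng had 115 CPM in mgat4b mut and 132 CPM in control (0.87), and mib1, the main Delta ligase of neural cells, 58.9 CPM in mgat4b mut and 81.6 CPM in control (0.72). Of 12 nuclear and turnover genes 1 was lower over all cells, dtx4a (0.56), and 0 higher, also below those shares. Neural progenitor-like cells had 4 of 15 tested genes of the first list and 3 of 10 of the second lower, and 0 higher. The shares of all genes there were 16.9% lower and 6.84% higher. In neural progenitor-like cells rbpjb, which codes for the DNA-binding partner of Notch, was lower (166 CPM in mgat4b mut and 322 CPM in control, ratio 0.52), while in newborn neuron-like cells it was higher (736 CPM in mgat4b mut and 468 CPM in control, ratio 1.57).

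Ligand, receptor and target RNA were also read in the same cells, each thinned to 2000 UMIs. In newborn neuron-like cells, 73.4% of the 128 mgat4b mut cells with a UMI of any of the 4 Deltas held a receptor UMI (64.9% to 80.9%), and 8 of the 32 without did (95% interval 11.46% to 43.4%). In control the share was 84.7% of 59 cells with Delta (73.0% to 92.8%), and 6 of 20 cells without (11.9% to 54.3%). Delta and receptor RNA thus occurred together in this class in both libraries, and the cells without Delta mostly had no receptor UMI at this depth.

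The her4 genes were also compared between cells with Delta and those without. In neural progenitor-like cells, 19.0% of 163 mgat4b mut cells with a Delta UMI held a UMI of any gene whose symbol begins with her4 (13.3% to 25.9%), and 6.0% of 100 without (2.23% to 12.6%). In control the shares were 39.0% of 41 cells with Delta (24.2% to 55.5%) and 56.0% of 25 without (34.9% to 75.6%), whose intervals overlap. Without thinning the control shares were 79.7% with Delta and 26.7% without, in the opposite order, so no order is read for control. The shares of control cells were above those of mgat4b mut cells in both kinds, and the difference was not tested.

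**Figure D4:**
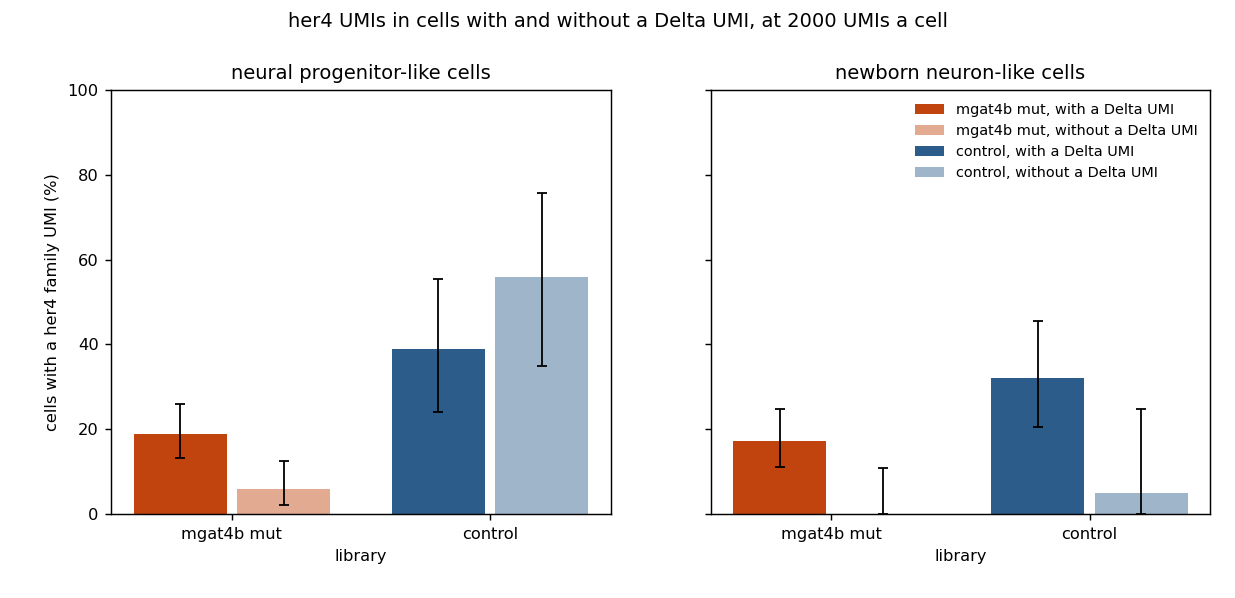
Share of cells with a her4 family UMI (percent, axis from 0) among cells with (dark) and without (light) a UMI of dla, dlb, dlc or dld, each cell thinned to 2000 UMIs, with exact 95% binomial intervals. In neural progenitor-like cells the mgat4b mut shares are 19.0% and 6.0% and the control shares 39.0% and 56.0%; in newborn neuron-like cells 17.2% and 0% in mgat4b mut and 32.2% and 5.0% in control.

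The genes whose levels over the 19 classes were most like each member were found from both libraries summed. Pearson's r of log2(CPM + 1) is given as a description, since the classes share libraries and differ in depth. The closest gene to dla was dlb, and to dlb it was dla (r = 0.958), each followed by inavaa and by hes6. With log2(CPM + 10) most members had another first gene, among them dla (inavaa), dlb (inavaa) and notch1b (her12). For dld the closest were cep131 (0.94), gadd45gb.1, itself a marker used to name newborn neurons, and lrrn1. For dlc, prdm1b (0.786), arhgef7b and slf2 were closest.

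For notch1b the closest gene was nrarpb (0.91), followed by efnb2b and efna5a, which code for ephrins, and for notch3 it was efna5a (0.922), followed by zgc:110796 and insrb. The closest to notch1a were zgc:153115 (0.938), tmpob and mycla, and to notch2 they were rest (0.925), map3k14a and myd88. For jag1b si:ch211-183d21.1 (0.829), arntl1b and hsd11b2 were closest, and for jag2b rptor (0.916), kif3b and btbd6b. Between members, notch2 was unlike dla (0.157) and dlb (0.035), and jag1b unlike dla (0.071), while notch1a and dla were close (0.894).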

How the data were processed

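Cells of both libraries were prepared with the 10x Genomics Next GEM 3' kit. The authors deposited raw counts of UMIs per gene and barcode, made with Cell Ranger (version 7.2.0 per the file headers) on GRCz11, and nothing in them was normalized. Whether strand was used in counting was not given in the sources used here. Cells were filtered as in the study, integrated with Seurat 5.3.0 (R 4.3.3; 30 anchor dimensions, 13 components, resolution 2) and clustered without the Notch lists among the features. A cluster was named after the class with most markers, and at least 3, among its top 50 genes. It stayed unnamed where another class led or matched that class in its top 10. A tie was broken by the count in the top 10. The fin fold-like class was named in this way, tied with basal epidermis at 3 markers. Doublets were not removed. A class was compared between libraries where each held at least 30 cells.

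Levels are summed UMIs of a class scaled to CPM, with exact Poisson intervals, exact conditional intervals for ratios and Clopper-Pearson intervals for shares (scipy 1.17.1), at 95%. A level of 0 was given the limit of 3 counts. TMM factors came from edgeR 4.0.16. The members, gene lists and tests were chosen with earlier results of these data known. All 10 members are named; of other lists, the genes past the size rule, at most 4 per list by UMIs, and those a sentence needed; and the 3 genes most like each member. Not analysed here as single genes are her4.2 and ascl1b, each with 2 IDs (both her4.2 rows count only in the share of cells with a her4 UMI), and not analysed at all her4.5, dlk1, ncstn, maml2 and dtx1. No sequences were used here. Alternatives were other scalings, filters, thresholds, thinning depths (1000 and 5000 UMIs), clusterings and the cell with most UMIs left out. Age was 36 hpf in both groups.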

Additional observations from a re-analysis of the deposited data

Results flagged for a closer look

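For 2 members, classes that passed the size rule went in opposite directions between the libraries, mgat4b mut over control, and the differences between classes were not tested. The receptor notch1a had a ratio of 1.70 in mesenchyme-like cells, against 0.524 in basal epidermis-like, 0.654 in differentiated neuron-like, 0.486 in fin fold-like and 0.592 in periderm-like cells. Its mesenchyme-like value (1.02 to 2.92) rested on 65 UMIs in mgat4b mut and 21 in control. It was past 1.5-fold in 2 of 5 alternatives and fell to 0.885 at resolution 1, where the opposite direction was lost. The ligand jag2b had a ratio of 1.62 in both neural progenitor-like and differentiated neuron-like cells and 1.64 in newborn neuron-like cells, against 0.419 in periderm-like cells, where it rested on 17 UMIs in mgat4b mut and 29 in control.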

How the results depend on the processing

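With 1 library per group, no replicate could be left out. No paired analysis was possible because each group had 1 library. Of the values of single genes, 594 stayed within the counting interval of the reported ratio, 99 left it and 4 were counted as turned. The 594 include 90 values at a fold of 2 and 90 at a minimum of 50 UMIs. These settings change the call and not the ratio, so their values could not move. A turn was counted only where the reported ratio had passed the size rule. The dla ratio in neural progenitor-like cells, which had not passed, also crossed 1, as given above. Among the 4 were notch1b over all cells with the mean of per-cell CPM (1.1) and dla in periderm-like cells without the top cell (1.23). The others came in alternatives chosen after seeing the data, notch1a in mesenchyme-like cells at resolution 1 (0.885) and dla in cluster 8 of the differentiated neuron-like class (1.27). The ratio of jag2b passed 1.5-fold in all 5 alternatives in neural progenitor-like (1.52 to 1.94) and newborn neuron-like cells (1.61 to 2.23), and in 6 of 7 in differentiated neuron-like cells. The cause of none of the changes below was tested. The share of all genes past the rule was counted for the main setting alone. The counts of members and targets below thus have no background share beside them. Over all cells, 0 members passed the rule with TMM factors, without the top cell, at a fold of 2, without mitochondrial and ribosomal protein genes in the total, with the mgat4b mut cells drawn down to the control number, or with the control mix of clusters (added after seeing the data). At a fold of 2 the count was 0 in basal epidermis-, mesenchyme-, neural progenitor- and retinal progenitor-like cells, 4 in differentiated neuron-like and 1 in newborn neuron- and periderm-like cells. Without the top cell it was 2 in fin fold- and 1 in periderm-like cells. TMM factors gave 2 in mesenchyme- and 4 in newborn neuron-like cells, the mean of per-cell CPM, by size alone, 2 in mesenchyme- and 6 in periderm-like cells, and a minimum of 50 UMIs 1 in newborn neuron-like cells. Added after seeing the data, resolution 1 gave 4 in basal epidermis- and 3 in mesenchyme-like cells, clusters 8 and 11 of the differentiated neuron-like class alone 4 and 6, and the periderm-like clusters 9 and 12 alone 0 and 7. Cluster 12 held 22 control cells, below the 30 set for a comparison. All alternatives for the targets were also added then: 5 were lower over all cells with TMM factors or a fold of 2 and 4 with the mean of per-cell CPM, 5 in retinal progenitor-like cells at a fold of 2, and 5 in differentiated neuron-like cells with the mean. A marker gate per cell kept the highest class of 6 of 10 members, shares without thinning kept 5, and a pseudocount of 10 kept the first gene of 3. Without thinning, the her4 shares of neural progenitor-like cells with Delta were 34.0% in mgat4b mut and 79.7% in control. Leaving out the 4 clusters with a median under 1000 UMIs, the largest with 100 mgat4b mut and 462 control cells, kept all 10 members within their counting intervals over all cells. Classes under 30 cells in control limit what can be read for endothelium, ear and pigment cells.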
